A study of Mus musculus with 8 samples.

Results

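Heat shock proteins and their DNAJ co-chaperones were examined as one gene family in tumours grown from 4T1 cells, a mouse breast cancer line. Members were taken by gene name, as HSP70 (Hspa), small heat shock protein (Hspb), HSP60 (Hspd), HSP10 (Hspe), HSP110 (Hsph), HSP90 and DNAJ classes A, B and C, and they made up 71 of the 32098 gene rows. By the site where each protein is known to act, 39 were cytosolic or nuclear, 13 belonged to the endoplasmic reticulum (ER), 8 were mitochondrial and 11 fell elsewhere. The name rule used no measured value.

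Chaperones bind unfolded stretches of other proteins and hold them until they fold or are handed on. HSP70 proteins do this in cycles driven by ATP, and a DNAJ protein sets each cycle off with its J domain and brings the client. The ER and the mitochondrion each keep their own HSP70, Hspa5 (BiP) and Hspa9 (mortalin), with their own DNAJ partners. Heat shock factor 1 raises the cytosolic set under proteotoxic stress, and the unfolded protein response raises the ER set.

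Whole tumours had been sequenced in 2 groups. RI tumours, numbered 1, 2, 4 and 5, had been given radiation together with an immune checkpoint inhibitor, and ICI tumours, numbered 1, 2, 3 and 4, had been given the inhibitor alone. All 8 carried the label wild type. The labels name neither the inhibitor nor a radiation dose, do not say whether a sequenced tumour lay in the irradiated field, and do not say that the tumours of a group came from separate animals. The p-values therefore measure the spread between these samples. The study's design text gives 3 replicates per group while 4 were listed in each.

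The deposited unit was FPKM, fragments scaled for gene length and library size. FPKM summed to 358243 in RI 5 and to 717092 in RI 4, the lowest and highest sums, so comparisons between tumours depend on the scaling. The libraries held 27013100 to 42622700 fragments. A pair of libraries stood apart. In RI 4, 60.7% of all FPKM fell on 3 gene models that resemble ribosomal RNA, where the other 7 tumours had 0.968% to 2.25%, and ICI 1 had 14750 genes at 1 FPKM or more, against 12682 to 13575. The epithelial keratins Krt8 and Krt18 were at 333 FPKM or more in all 8 tumours, and Krt7 was at 15.9 to 40.3 FPKM. The other epithelial markers listed were low in most tumours of both groups and did not reach 1 FPKM in 4 tumours. Epcam was at 0 to 5.02 FPKM, Krt19 at 0.0881 to 25.2 FPKM and Cldn4 at 0.137 to 3.42 FPKM. In whole tumours, fewer cells of a type and less RNA per cell cannot be told apart.

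Expression of the family was dominated by a few chaperones. Averaged over the 8 tumours, Hsp90ab1 was highest at 821 FPKM, and Hspa8, the constitutive cytosolic HSP70, followed at 552 FPKM. Hspa5 stood at 361 FPKM, Hsp90aa1 at 213 FPKM, Hsp90b1 at 210 FPKM and Hspd1 at 163 FPKM. The neighbours Hsp90aa1 and Hsp90b1 differed by far less than their spread, with SDs in ICI tumours of 83.2 FPKM and 67.9 FPKM. Shares of fragments were taken over the 31407 of 32098 gene rows with a known exon length, and not over whole libraries. On that total the whole family took 1.28%, 1.30%, 1.40% and 1.21% in RI 1, 2, 4 and 5. In ICI 1 to 4 it took 0.656%, 1.22%, 1.52% and 1.26%. The place of RI 4 among the RI tumours depends on that total. The groups overlapped, and ICI 1 held the lowest share.

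Of the 71 genes, 59 reached 1 FPKM in at least 4 tumours and were tested with limma on log2(FPKM + 1), RI minus ICI. All 6 members that passed at an adjusted p under 0.05 were class C DNAJ genes. Dnajc3, Dnajc10, Dnajc16 and Dnajc13 were higher in RI tumours, 4 of 59 members where 11.1% of all 13439 genes tested were called higher. Dnajc17 and Dnajc4 were lower, 2 of 59 where 6.6% of all genes were called lower. The other 53 did not pass, and 14 of the 59 had an unadjusted p under 0.05. The groups did not overlap, with RI above ICI, in 7 members, against 16.7% of all genes, and with RI below ICI in 5 members, against 11.2% of all genes. In each direction the members' share was no higher than that of all genes. With limma voom on recovered fragments the same 4 were called higher, and Dnajc17, Dnajc4 and Dnajc19 lower. Over all genes voom called 1646 higher and 938 lower of 13330.

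**Figure D1:**
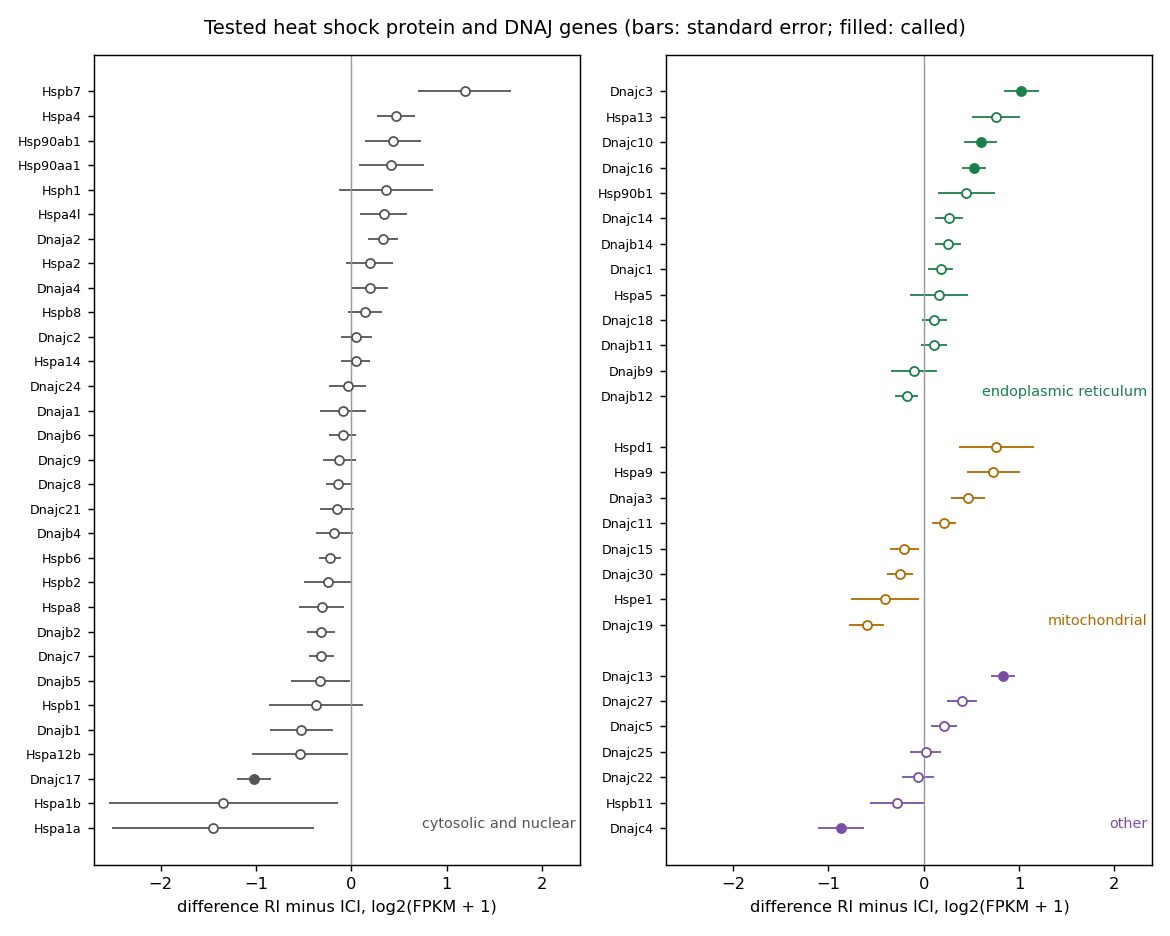
Difference RI minus ICI on the log2(FPKM + 1) scale for each of the 59 tested genes, by compartment; points are limma estimates, bars are standard errors, and filled points passed at an adjusted p under 0.05. The 6 filled points are DNAJ genes, and Hspa1a and Hspa1b have the widest bars.

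By family, 36 of the 44 DNAJ genes were tested, with 4 called higher and 2 lower, beside 11.1% and 6.6% of all genes. Of the 27 heat shock proteins outside the DNAJ group 23 were tested, and 0 passed with limma or with voom. Of those 23, 4 had an unadjusted p under 0.05. That split was not tested. The spread inside the ICI group differed between them. The median coefficient of variation over the 23 was 14.2% in RI and 37.7% in ICI tumours, and over the 36 it was 12.5% in RI and 17.4% in ICI tumours. Over all genes tested it was 18.2% in RI and 22.8% in ICI tumours. ICI 1 was the lowest of the 8 tumours in 15 of the 23, in 15 of the 36 and in 29.2% of all genes.

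In the ER, 3 DNAJ co-chaperones rose in RI tumours while BiP itself did not pass the test. Of 13 members, all tested, 3 were called higher in RI, Dnajc3, Dnajc10 and Dnajc16, and 0 were called lower, beside 11.1% and 6.6% of all genes. The differences of 11 were above 0, beside 6867 of all 13439 genes. The median over the 13 was 0.26 on the log2 scale, beside 0.0115 over all genes tested. With trends on exon length and GC content removed from each library, 8 differences were above 0 and 5 below.

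Dnajc3 (p58IPK) binds unfolded proteins in the ER lumen with BiP and is also known as an inhibitor of the kinase PERK. It lies on chromosome 14 at 118937976 to 118981697 (GRCm38, plus strand). Dnajc3 had 44.98, 38.1, 40.4 and 46.1 FPKM in RI 1, 2, 4 and 5, against 14.4, 22.5, 25.6 and 20.3 FPKM in ICI 1 to 4. The lowest RI tumour was well above the highest ICI tumour. It averaged 42.4 ± 3.78 FPKM in RI and 20.7 ± 4.74 FPKM in ICI tumours (SD, n = 4 each), a difference of 1.02 ± 0.18 (SE) on the log2 scale with an adjusted p of 0.0142 (limma). It was the largest difference of the 13 and it passed with each single tumour left out, with adjusted p-values between 0.00916 and 0.0492.

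Dnajc10 (ERdj5), on chromosome 2 at 80315466 to 80354043, is a disulfide reductase that opens misfolded proteins before they leave the ER. It had 31.6, 32.1, 28.5 and 34.8 FPKM in RI 1, 2, 4 and 5, against 14.996, 25.3, 23.7 and 19.9 FPKM in ICI 1 to 4. The groups did not overlap. The difference was 0.60 ± 0.18 (SE), with an adjusted p of 0.0459 (limma). With each tumour left out in turn the difference stayed between 0.45 and 0.69, while the adjusted p rose above 0.05 when any RI tumour, ICI 3 or ICI 4 was missing, to at most 0.113. Over all genes, too, calls numbered 2373 with all tumours and as few as 336 without ICI 4.

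Dnajc16, a membrane protein of the ER encoded on chromosome 4 at 141760189 to 141790931, was expressed at a lower level. It had 4.46, 4.57, 3.52 and 4.40 FPKM in RI 1, 2, 4 and 5, against 2.63, 2.49, 2.82 and 2.60 FPKM in ICI 1 to 4. RI 4 was the lowest of its group and still above every ICI tumour. The difference was 0.52 ± 0.13 (SE), with an adjusted p of 0.0256 (limma), and with each tumour left out in turn it stayed between 0.49 and 0.59. The call was lost at that smaller n without ICI 2, ICI 4, RI 1, RI 2 or RI 5, the adjusted p reaching 0.0797.

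**Figure D2:**
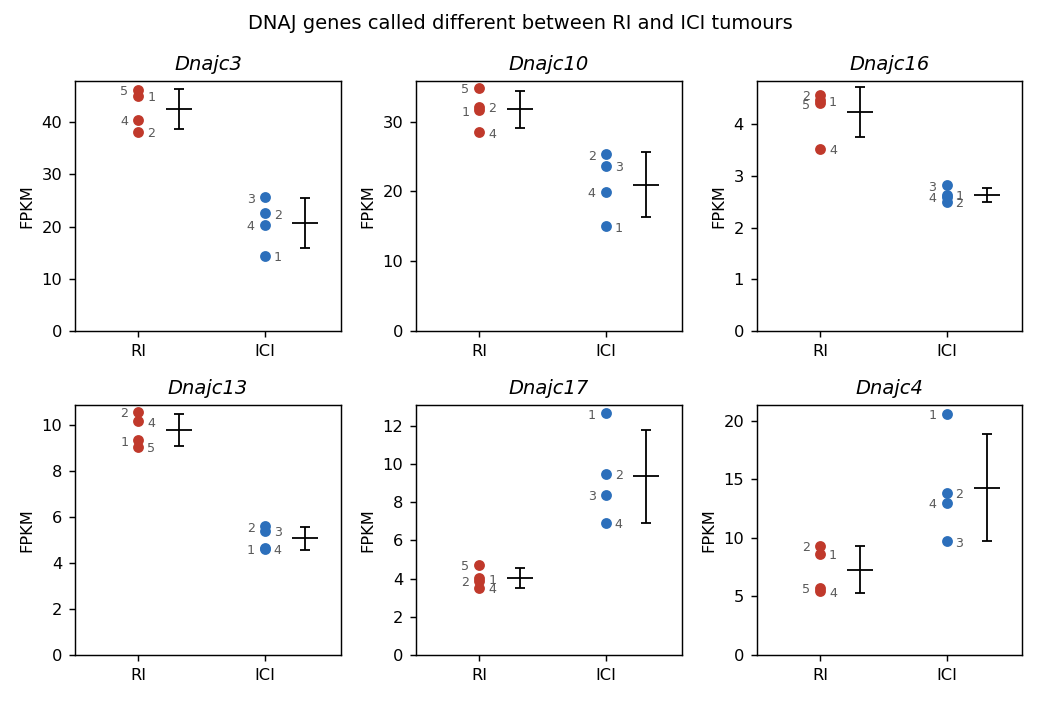
FPKM of the 6 called genes in each tumour, RI left and ICI right; numbers beside points are tumour numbers, and horizontal and vertical bars are the mean and SD of 4 tumours. In each panel the RI and ICI points do not overlap, with RI above ICI for Dnajc3, Dnajc10, Dnajc16 and Dnajc13 and below for Dnajc17 and Dnajc4.

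BiP itself, Hspa5, had 385, 365, 346 and 380.4 FPKM in RI 1, 2, 4 and 5, against 165, 366, 437 and 442 FPKM in ICI 1 to 4. The RI values lay inside the ICI range, which ICI 1 opened downward. The difference of 0.17 did not pass (adjusted p = 0.722, limma), and without ICI 1 it was -0.16. The ratio of Dnajc3 to Hspa5 was 0.117, 0.104, 0.117 and 0.121 in RI 1, 2, 4 and 5, against 0.0871, 0.0616, 0.0586 and 0.0460 in ICI 1 to 4. Each RI tumour was above each ICI tumour, a pair chosen after its values were seen and so given without a test.

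Hsp90b1 (GRP94), the ER form of HSP90, had 242, 242, 219 and 237 FPKM in RI 1, 2, 4 and 5, against 86.8, 217, 241 and 192 FPKM in ICI 1 to 4. The groups overlapped, and the difference of 0.45 did not pass (adjusted p = 0.309, limma). Without ICI 1 it was 0.12. Dnajb9 (ERdj4), a co-chaperone that the unfolded protein response induces, had 9.67, 11.7, 8.03 and 11.2 FPKM in RI tumours and 6.50, 11.2, 11.8 and 16.0 FPKM in ICI 1 to 4. That difference was -0.10, with an adjusted p of 0.784 (limma). Hspa13, an HSP70-like ATPase of the ER membrane, had 7.33, 10.1, 7.78 and 8.49 FPKM in RI tumours and 2.14, 5.97, 6.26 and 4.92 FPKM in ICI 1 to 4. Its groups did not overlap and its difference of 0.76 missed the threshold (adjusted p = 0.0671, limma). Without ICI 1 it was 0.48 with an adjusted p of 0.0431.

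The remaining 6 ER members differed by -0.18 to 0.26, and none passed. The membrane J proteins Dnajc14 and Dnajb14 each differed by 0.26 (adjusted p = 0.221 and 0.213, limma), and Dnajc1 by 0.18. Dnajb11 (ERdj3), the third most abundant DNAJ gene of the ER, averaged 19.5 ± 2.50 FPKM in RI and 18.0 ± 1.78 FPKM in ICI tumours (SD, n = 4 each), a difference of 0.11 with an adjusted p of 0.610 (limma). Dnajb12, a J protein of the ER membrane that takes part in degradation, had 13.8, 14.4, 11.6 and 14.6 FPKM in RI tumours and 14.8, 16.1, 15.1 and 15.9 FPKM in ICI 1 to 4. It was the one ER gene with every RI tumour below every ICI tumour, by a small margin, and its difference of -0.18 did not pass (adjusted p = 0.323, limma).

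The ER stress response element, which is CCAAT, then any 9 bases, then CCACG, on either strand, is the sequence through which ATF6 and XBP1 act on BiP in textbook accounts. RefSeq promoters of GRCm38.p6, 250 bases before to 50 after each start, were found for 57 of the 71 members. The element stood in 3 of the 57, Dnajc3, Hsp90b1 and Hspa5, and in 0.119% of all 32851 promoters. Members were counted by gene, the 57 having 74 promoters, while the share over all was counted by promoter. These windows are shown because the 3 genes carry the same element while Dnajc3 alone of them was called. Capitals mark the element, the strand is that of the gene, and in the second Hsp90b1 window the element runs on the opposite strand.
Dnajc3, chr14:118937807-118937865, plus strand: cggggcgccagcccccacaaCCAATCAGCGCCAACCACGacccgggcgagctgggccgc
Hspa5, chr2:34772005-34772063, plus strand: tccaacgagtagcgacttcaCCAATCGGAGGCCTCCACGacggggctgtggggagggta
Hsp90b1, chr10:86705618-86705676, minus strand: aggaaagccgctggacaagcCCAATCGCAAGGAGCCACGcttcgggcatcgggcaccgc
Hsp90b1, chr10:86705513-86705571, minus strand: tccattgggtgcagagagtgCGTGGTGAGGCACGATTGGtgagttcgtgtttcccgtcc
The element began with CCAATC in each of the 3 genes when read on its own strand. It ended 86 bases before the RefSeq start in Dnajc3, 46 in Hspa5, and 193 and 88 in Hsp90b1. A match is a description of the letters and not of binding.

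Of 18 other ER chaperones and folding enzymes, 3 were called higher and 0 lower, where 11.1% and 6.6% of all genes were, and the list median was 0.10. Canx (calnexin), which holds glycoproteins in the ER, averaged 142 ± 9.93 FPKM in RI and 65.8 ± 29.7 FPKM in ICI tumours (SD, n = 4 each), a difference of 1.23 with an adjusted p of 0.0360 (limma). Hyou1, the exchange factor and large HSP70 of the ER, averaged 29.99 ± 2.03 FPKM in RI and 17.7 ± 5.69 FPKM in ICI tumours, a difference of 0.79. Sec61a1, the channel through which proteins enter the ER, differed by 0.62. With trends on exon length and GC content removed from each library, 1 of the 3, Canx, still passed. Without ICI 1 the calls were 2 higher, Canx and Hyou1, and 2 lower, Manf and Sec61b.

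Of 11 genes of the unfolded protein response, 2 were called higher and 1 lower, where 11.1% and 6.6% of all genes were. The list median was -0.21. Of the sensors, Atf6 and Ern1 were higher in RI. The sensor Eif2ak3 (PERK) averaged 3.01 FPKM in RI and 3.74 FPKM in ICI tumours. Its difference of -0.21 did not pass (adjusted p = 0.512, limma). Atf6 averaged 13.6 ± 0.902 FPKM in RI and 7.48 ± 1.62 FPKM in ICI tumours, a difference of 0.80 (adjusted p = 0.0157, limma), and Ern1 (IRE1) differed by 0.62 (adjusted p = 0.0168). Ppp1r15a (GADD34), which restarts translation after stress, averaged 5.54 ± 2.00 FPKM in RI and 15.7 ± 3.35 FPKM in ICI tumours, a difference of -1.38 (adjusted p = 0.0130, limma). Atf4 had a difference of -0.52 and Xbp1 of -0.33, and neither passed (adjusted p = 0.0825 and 0.199, limma). Without ICI 1 the calls were 2 higher and 3 lower, Atf4 and Atf3 joining Ppp1r15a.

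Some markers of other cell types differed beside these ER genes. The 6 fibroblast markers summed to 79.8 to 364 FPKM in RI and 39.0 to 54.8 FPKM in ICI tumours, with 3 of 6 called higher. The 5 macrophage markers summed to 197 to 490.0 FPKM in RI and 199.6 to 238 FPKM in ICI tumours, and these sums overlapped. Of the 5, 2 were called higher, Adgre1 and Mrc1, while Cd68 differed by -0.16 (adjusted p = 0.559, limma). Of all genes tested 11.1% were called higher. The part of these cell types in the differences of the ER genes was not tested.

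Among the 39 cytosolic and nuclear members 31 were tested. Of these, 0 were called higher and 1, Dnajc17, lower, beside 11.1% and 6.6% of all genes. The differences of 12 were above 0 and of 19 below, with a median of -0.13. Over all genes tested 6867 were above 0 and 6572 below. Each of the heat-inducible genes Hspa1a, Hspa1b and Dnajb1 was lowest in ICI 1 and highest in ICI 3 and ICI 4.

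Dnajc17, a nuclear J protein linked to splicing, is encoded on chromosome 2 at 119172500 to 119208795 (minus strand). It had 4.02, 3.87, 3.51 and 4.74 FPKM in RI 1, 2, 4 and 5, against 12.6, 9.50, 8.39 and 6.92 FPKM in ICI 1 to 4. Every RI tumour was below every ICI tumour. It averaged 4.03 ± 0.514 FPKM in RI and 9.36 ± 2.43 FPKM in ICI tumours (SD, n = 4 each), a difference of -1.02 ± 0.18 (SE) with an adjusted p of 0.0134 (limma). The call stood with each tumour left out, at adjusted p-values of 0.00944 to 0.0463. Of its exon bases 8.26% overlap Zfyve19 on the opposite strand, and the sources do not say whether counting used strand.

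The stress-inducible HSP70 genes Hspa1a and Hspa1b lie side by side on chromosome 17, at 34969190 to 34972156 and at 34956436 to 34959238. They are near-identical copies, so reads may be split between them. Hspa1a had 4.44, 8.78, 13.5 and 2.71 FPKM in RI 1, 2, 4 and 5, against 0.992, 20.1, 63.6 and 57.96 FPKM in ICI 1 to 4. Hspa1b had 14.4, 23.4, 38.0 and 9.88 FPKM in RI 1, 2, 4 and 5, against 2.58, 49.8, 228 and 159 FPKM in ICI 1 to 4. For both genes ICI 1 was lowest, the 4 RI tumours came next, and ICI 2, ICI 4 and ICI 3 were highest, in the same order over all 8. Within ICI the highest tumour exceeded the lowest 64.1 times for Hspa1a and 88.3 times for Hspa1b, against 4.98 and 3.84 times within RI.

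The difference was -1.45 ± 1.06 (SE) for Hspa1a and -1.34 ± 1.20 for Hspa1b, and neither passed (adjusted p = 0.355 and 0.450, limma). Without ICI 1 both were called lower, by -2.56 (adjusted p = 0.0253) and -2.62 (adjusted p = 0.0287). Of the exon bases of Hspa1a 19.0% overlap Gm20481 on the opposite strand. Leaving out that 1 tumour changed both calls.

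Dnajb1 (HSP40), the inducible partner of these HSP70s, had 13.6, 16.7, 13.6 and 14.7 FPKM in RI 1, 2, 4 and 5, against 11.1, 16.5, 37.6 and 30.1 FPKM in ICI 1 to 4. The RI tumours lay inside the ICI range, near its low end. The difference was -0.53 (adjusted p = 0.280, limma), and without ICI 1 it was -0.82 (adjusted p = 0.0436). Hsph1 (HSP110), their exchange factor, had 14.1, 17.0, 18.9 and 12.9 FPKM in RI 1, 2, 4 and 5, against 3.56, 10.5, 26.5 and 18.0 FPKM in ICI 1 to 4. Its difference of 0.36 (adjusted p = 0.624, limma) turned to -0.14 without ICI 1.

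**Figure D3:**
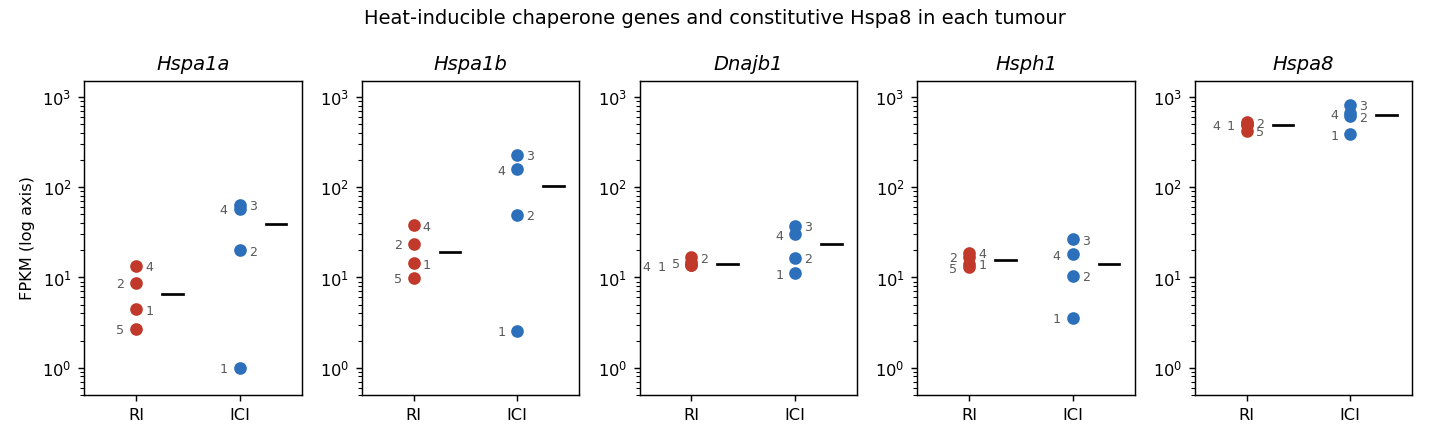
FPKM on a log axis of 4 heat-inducible genes and of constitutive Hspa8 in each tumour, RI left and ICI right; numbers are tumour numbers and dashes are group medians. ICI 1 is lowest in all 5 panels and ICI 3 highest, with the RI tumours between them.

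Within ICI the highest tumour exceeded the lowest 2.13 times for Hspa8, 2.63 times for Hsp90ab1 and 3.45 times for Hsp90aa1. For Dnajb1 and Hsph1 it was 3.38 and 7.46 times. Hspa8, which also uncoats clathrin, had 498, 526, 489 and 421 FPKM in RI 1, 2, 4 and 5, against 386, 612, 823 and 659 FPKM in ICI 1 to 4. The RI tumours lay between ICI 1 and the other ICI tumours, and the difference of -0.31 did not pass (adjusted p = 0.374, limma). Without ICI 1 it was -0.52. Hsp90ab1 had 1008, 992, 817 and 871 FPKM in RI 1, 2, 4 and 5, against 364, 811, 956 and 752 FPKM in ICI 1 to 4. Hsp90aa1, the inducible cytosolic HSP90, had 231, 236, 223 and 248 FPKM in RI tumours, against 79.8, 227, 275 and 187 FPKM in ICI 1 to 4. For both, ICI 1 was far below the other 7 tumours, and the differences of 0.44 and 0.42 did not pass (adjusted p = 0.310 and 0.402, limma). Without ICI 1 they were 0.14 and 0.0447. Hspa4, an HSP110-class exchange factor, had 53.8, 60.6, 54.8 and 51.9 FPKM in RI tumours and 27.2, 50.5, 45.3 and 39.5 FPKM in ICI 1 to 4. Its groups did not overlap, and its difference of 0.47 did not pass (adjusted p = 0.120, limma).

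The tested DNAJ genes of the cytosol and nucleus other than Dnajc17 and Dnajb1 had differences of -0.33 to 0.33, and none passed. Dnaja1 and Dnaja2, the class A partners of Hspa8, differed by -0.09 and 0.33 (adjusted p = 0.821 and 0.164, limma). Dnajb6, which holds back aggregation, averaged 19.0 ± 2.22 FPKM in RI and 20.3 ± 2.46 FPKM in ICI tumours (SD, n = 4 each), and Dnajc2, a partner of the ribosome, averaged 15.2 ± 1.78 FPKM in RI and 14.7 ± 2.76 FPKM in ICI tumours. Neither difference, -0.09 and 0.05, was larger than its standard error. Dnajc7 (TPR2), which passes clients between HSP70 and HSP90, had 14.3, 13.6, 11.2 and 13.8 FPKM in RI 1, 2, 4 and 5, against 18.4, 16.5, 16.5 and 15.2 FPKM in ICI 1 to 4. Every RI tumour was below every ICI tumour, and the difference of -0.32 did not pass (adjusted p = 0.112, limma). With length and GC trends removed it was -0.47 and passed (adjusted p = 0.0158), as did Dnajb6 at -0.31 (adjusted p = 0.0452).

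Neutrophil markers also set ICI 1 apart. The 8 summed to 17.3 to 76.4 FPKM in RI tumours and to 207 to 20792 FPKM in ICI tumours, the highest in ICI 1, with Ly6g and Camp at 0 in at least 1 tumour and 2 of 7 tested called lower (6 without ICI 1, and 0 with voom). The 4 haemoglobin genes summed to 0.289 to 102 FPKM in RI and 208 to 1062 FPKM in ICI tumours, again highest in ICI 1, with 2 of 4 called lower (0 without ICI 1, and 0 with voom). Of all genes tested 6.6% were called lower. The part of either set in the ICI 1 values of the chaperone genes was not tested.

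The small heat shock proteins, holdases that need no ATP, had 0 called members (limma, and with voom) among 5 tested of 7, with 1 of the 5 at an unadjusted p under 0.05. Hspb1 (HSP25) had 10.5, 41.6, 30.8 and 17.7 FPKM in RI 1, 2, 4 and 5, against 37.9, 12.0, 39.7 and 39.0 FPKM in ICI 1 to 4. The groups overlapped, with ICI 2 far below the other ICI tumours (difference -0.37, adjusted p = 0.618, limma). Hspb7, a chaperone of heart and skeletal muscle, had 5.59, 8.02, 13.8 and 6.41 FPKM in RI tumours and 3.23, 3.52, 7.32 and 0.518 FPKM in ICI 1 to 4, a difference of 1.19 (adjusted p = 0.117, limma). The 10 skeletal muscle markers summed to 144 to 620.0 FPKM in RI and 16.4 to 311 FPKM in ICI tumours, 2 of 10 called higher (0 without ICI 1, and 0 with voom), with Ckm, Myh4 and Myh2 at 0 in at least 1 tumour. Of all genes tested 11.1% were called higher. RI 4 was highest and ICI 4 lowest both in Hspb7 and in the muscle sum, and the part of muscle in the Hspb7 values was not tested. Hspa12b, an HSP70 relative known from endothelium, was at 9.89 FPKM in ICI 1 and at 0.888 to 2.56 FPKM in the other 7 tumours. The 6 endothelial markers summed to 211 FPKM in ICI 1 and 21.2 to 58.04 FPKM in the others.

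Partners of the cytosolic chaperones are given beside the shares over all genes, 11.1% called higher and 6.6% lower. Of 14 HSP90 co-chaperones 0 were called in either direction by limma or voom, and 2 had an unadjusted p under 0.05. Of 9 HSP70 exchange factors and partners 1 was called higher, Bag3, which joins HSP70 to small heat shock proteins and autophagy. Bag3 averaged 28.4 ± 2.28 FPKM in RI and 17.1 ± 5.77 FPKM in ICI tumours (SD, n = 4 each), a difference of 0.75 (adjusted p = 0.0449, limma). Of 14 subunits of the TRiC chaperonin and of prefoldin, the complex that hands actin and tubulin to it, 5 were called lower and 0 higher.

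All 5 were prefoldin subunits, Pfdn1, Pfdn2, Pfdn4, Pfdn5 and Pfdn6. Pfdn6 averaged 20.5 ± 4.23 FPKM in RI and 39.3 ± 4.67 FPKM in ICI tumours (SD, n = 4 each), a difference of -0.92 (adjusted p = 0.0161, limma). The other 4 differed by -0.79 to -0.69. The remaining prefoldin subunit listed, Vbp1, had 22.0 FPKM in RI and 23.5 FPKM in ICI tumours and did not pass (adjusted p = 0.791). With length and GC trends removed 4 of the 5 were called lower.

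Heat shock factor 1, the main activator of the inducible genes, had 7.10, 6.18, 5.82 and 6.70 FPKM in RI 1, 2, 4 and 5, against 9.57, 7.48, 9.55 and 8.82 FPKM in ICI 1 to 4. Every RI tumour was below every ICI tumour, including ICI 1, in which Hspa1a and Hspa1b were lowest. The Hsf1 difference of -0.40 ± 0.13 (SE) narrowly missed the threshold (adjusted p = 0.0569, limma), and with length and GC trends removed it was -0.50 and passed (adjusted p = 0.0134). Of the 4 genes listed around the heat shock factors 3 were tested, and 0 were called by limma or voom, 1 with an unadjusted p under 0.05. Of 8 immediate early genes, which handling and stress switch on within minutes, 3 were called lower in RI, beside 6.6% of all genes. These were Fos by -1.64, Junb by -0.92 and Jun by -0.81, and the median over the 8 genes was -1.05. Their part in the spread of the heat-inducible genes was not tested.

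In the mitochondrion 8 of 8 members were tested and 0 were called with limma, beside 11.1% of all genes called higher and 6.6% lower. With limma 3 of the 8 had an unadjusted p under 0.05, while voom called Dnajc19 lower. The 8 differences split evenly, 4 above 0 and 4 below, with a median of 0.00492. Those above 0 were Hspd1, Hspa9, Dnaja3 and Dnajc11.

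Hspd1 (HSP60) and Hspe1 (HSP10) form the barrel and the lid of the mitochondrial chaperonin, and their genes lie head to head on chromosome 1, at 55077835 to 55088243 and at 55088132 to 55091307. Hspd1 had 209, 217, 179 and 183 FPKM in RI 1, 2, 4 and 5, against 45.5, 154, 192 and 129.7 FPKM in ICI 1 to 4. Hspe1 had 75.0, 65.9, 38.4 and 60.4 FPKM in RI 1, 2, 4 and 5, against 36.4, 92.4, 114 and 92.9 FPKM in ICI 1 to 4. In both genes the groups overlapped, and ICI 1 was the lowest tumour. The difference was 0.76 for Hspd1 (adjusted p = 0.193, limma) and -0.40 for Hspe1 (adjusted p = 0.440, limma), opposite in sign. Without ICI 1, Hspe1 was called lower by -0.76 (adjusted p = 0.0419), while Hspd1 was at 0.32 (adjusted p = 0.199).

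The ratio of Hspd1 to Hspe1 was 2.78, 3.29, 4.65 and 3.02 in RI 1, 2, 4 and 5, against 1.25, 1.67, 1.69 and 1.40 in ICI 1 to 4. The groups did not overlap, and ICI 1, low in both genes, stood with the other ICI tumours. With length and GC trends removed the ratio was 1.41 to 2.08 in RI and 0.31 to 0.83 in ICI tumours on the log2 scale. The pair was set side by side after its values were seen, and no test is given. Hspe1 is the shorter gene model, with 1474 exon bases against 2642, and 112 of its bases overlap Hspd1 on the opposite strand.

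**Figure D4:**
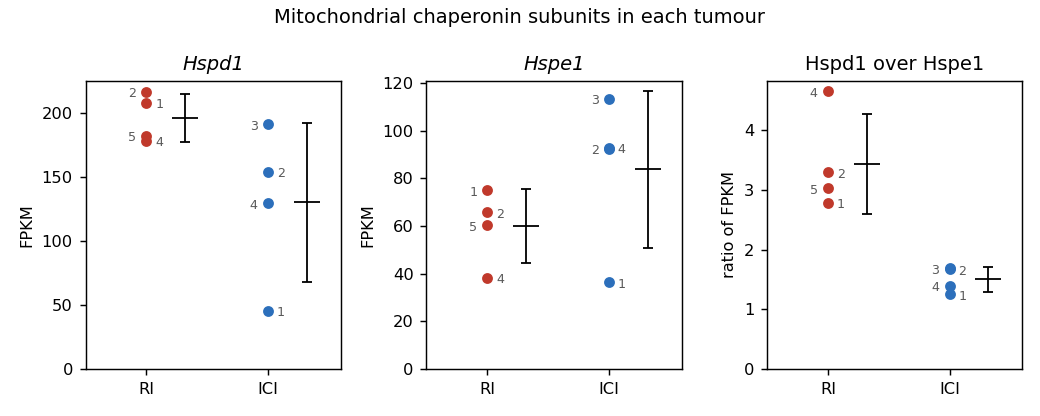
FPKM of Hspd1 and Hspe1 and the ratio of the 2 in each tumour, RI left and ICI right; numbers are tumour numbers, and bars are the mean and SD of 4 tumours. The single genes overlap between groups, while the ratio is 2.78 or more in RI and 1.69 or less in ICI tumours.

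The shared start of this gene pair holds the heat shock element, the alternating GAA and TTC units that heat shock factors bind. The form searched was GAA, TTC and GAA with any 2 bases between each and the next, on either strand. It stood in the promoters of Hspd1, Hspe1, Dnajb6 and Hsph1, 4 of the 57 members with a promoter. Over all promoters the share was 0.603%, again counted by promoter where the members were counted by gene. The Hspd1 and Hspe1 windows are shown because the same bases face both genes, whose values differed in sign between the groups. Capitals mark the element on the strand of each gene, and the 2 matches overlap by 8 bases on opposite strands.
Hspd1, chr1:55088039-55088091, minus strand: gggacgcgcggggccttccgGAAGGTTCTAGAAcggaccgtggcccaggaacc
Hspe1, chr1:55088044-55088096, plus strand: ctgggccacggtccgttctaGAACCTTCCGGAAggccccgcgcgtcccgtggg
Dnajb6, chr5:29735832-29735884, plus strand: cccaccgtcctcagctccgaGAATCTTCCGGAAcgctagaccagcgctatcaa
Hsph1, chr5:149636268-149636320, minus strand: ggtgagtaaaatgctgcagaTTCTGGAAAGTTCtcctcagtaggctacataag
Of the 4 genes 0 were called. In Hsph1 the element runs on the opposite strand and lies after the RefSeq start. Promoters of Hspa1a, Hspa1b and Dnajb1 were in the table and did not hold these letters within the window, which says nothing of the factor.

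The matrix HSP70 Hspa9, which pulls imported proteins through the inner membrane, had 103, 102, 92.3 and 116 FPKM in RI 1, 2, 4 and 5, against 33.6, 78.4, 88.1 and 62.0 FPKM in ICI 1 to 4. Its groups did not overlap, and its difference of 0.73 ± 0.28 (SE) did not pass (adjusted p = 0.0935, limma). Dnaja3 (Tid1), its J protein for folding, had 13.1, 13.2, 11.5 and 13.0 FPKM in RI tumours and 6.25, 9.80, 12.0 and 8.47 FPKM in ICI 1 to 4, a difference of 0.47 (adjusted p = 0.0952, limma). Dnajc19 (TIM14), its J protein in the import motor by homology with yeast, had 4.70, 5.20, 3.00 and 3.73 FPKM in RI tumours and 4.98, 8.12, 6.90 and 7.13 FPKM in ICI 1 to 4. Here the direction was the other way, -0.60 ± 0.18 (SE), with an adjusted p of 0.0523 (limma). It passed without ICI 1 (-0.72, adjusted p = 0.0203) and with length and GC trends removed (-0.65, adjusted p = 0.0158).

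The other 3 mitochondrial J proteins differed by less. Dnajc11, of the inner membrane organising complex, averaged 5.60 ± 0.573 FPKM in RI and 4.69 ± 0.433 FPKM in ICI tumours (SD, n = 4 each), a difference of 0.21. Dnajc15, a relative of Dnajc19, and Dnajc30 differed by -0.20 and -0.25, and none of the 3 passed (adjusted p = 0.250, 0.370 and 0.221, limma). With length and GC trends removed Dnajc15 was at -0.43 and passed (adjusted p = 0.0277). Of the exon bases of Dnajc30 26.2% overlap Bud23 on the opposite strand.

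Of 13 mitochondrial partners and proteases 2 were called lower and 0 higher with limma, beside 6.6% and 11.1% of all genes. With voom 2 were lower and 1 higher, and with limma 6 had an unadjusted p under 0.05. Pam16, whose yeast relative holds the J protein of the import motor in check, averaged 5.14 ± 0.914 FPKM in RI and 9.20 ± 1.11 FPKM in ICI tumours (SD, n = 4 each), a difference of -0.74 (adjusted p = 0.0171, limma). Clpp, a matrix protease, differed by -0.69 (adjusted p = 0.0339, limma) and did not pass with the trends removed (adjusted p = 0.0777). Shares of fragments were again taken over gene rows with a known exon length. Transcripts of the mitochondrial genome took 2.72% to 3.24% of fragments in RI and 4.41% to 8.21% in ICI tumours. The part of that difference in the values of the nuclear genes was not tested.

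Of the 11 members placed elsewhere, 7 were tested, 1 was called higher and 1 lower, beside 11.1% and 6.6% of all genes. Dnajc13 (RME-8), which recruits Hspa8 to endosomes for sorting, lies on chromosome 9 at 104151282 to 104262930 (minus strand). It had 9.35, 10.6, 10.2 and 9.07 FPKM in RI 1, 2, 4 and 5, against 4.65, 5.60, 5.42 and 4.62 FPKM in ICI 1 to 4. The groups stood well apart, with narrow spreads of 9.80 ± 0.709 FPKM in RI and 5.07 ± 0.509 FPKM in ICI tumours (SD, n = 4 each). The difference was 0.83 ± 0.12 (SE) with an adjusted p of 0.0115 (limma), the smallest of the 59, and it passed with each tumour left out. Dnajc13 has the longest gene model of these 6 called genes, 11938 exon bases, and with length and GC trends removed its difference was 0.49 (adjusted p = 0.0127).

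Dnajc4, on chromosome 19 at 6987911 to 6992572, had 8.66, 9.30, 5.43 and 5.75 FPKM in RI 1, 2, 4 and 5, against 20.6, 13.9, 9.71 and 13.0 FPKM in ICI 1 to 4. The highest RI tumour, RI 2, was just below the lowest ICI tumour, ICI 3. The difference was -0.87 ± 0.24 (SE) with an adjusted p of 0.0375 (limma). Dnajc4 has the shortest model of the 6, 1240 exon bases, and with length and GC trends removed the difference was -0.53 and did not pass (adjusted p = 0.131). With each tumour left out in turn the difference stayed between -1.03 and -0.69, and the call was lost when any RI tumour, ICI 2 or ICI 4 was missing, the adjusted p reaching 0.0894.

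The other 5 tested members of this group differed by -0.28 to 0.40. Dnajc27, a small GTPase with a J domain, had 6.26, 5.29, 5.04 and 6.10 FPKM in RI 1, 2, 4 and 5, against 3.25, 5.38, 4.11 and 3.67 FPKM in ICI 1 to 4. ICI 2 alone reached into the RI range, and the difference of 0.40 did not pass (adjusted p = 0.0957, limma). Dnajc5, the cysteine string protein of secretory vesicles, averaged 24.6 ± 2.21 FPKM in RI and 21.2 ± 2.45 FPKM in ICI tumours (SD, n = 4 each), a difference of 0.21. Hspb11 (IFT25), a protein of intraflagellar transport, differed by -0.28 (adjusted p = 0.501, limma).

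Set side by side, the compartments had medians of -0.13 for the 31 cytosolic and nuclear members, 0.26 for the 13 of the ER and 0.00492 for the 8 of the mitochondrion, beside 0.0115 for all genes. The members' median exon length was 3589 bases in the cytosolic and nuclear group, 5141 in the ER group and 3768 over all genes tested. With length and GC trends removed the medians were -0.0888, 0.0469 and -0.0375, beside -0.00943 for all genes, so the ER median kept its sign and was much smaller. Relative to the median of all genes, the ER median was 0.24, and it was 0.14 without ICI 1 and 0.0684 without ICI 1 and RI 4. Over the alternatives that kept the same genes it ran from 0.0564 to 0.33 on that relative scale, and the cytosolic median from -0.16 to -0.0595. No test between compartments was made.

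Tumour by tumour, the ER median relative to the mean of all 8 was 0.21, 0.24, 0.05 and 0.13 in RI 1, 2, 4 and 5, against -0.26, -0.07, 0.06 and -0.19 in ICI 1 to 4. RI 4 lay just under ICI 3, and otherwise the RI tumours were above the ICI tumours. Over all genes tested, too, RI 1, 2 and 5 were above the ICI tumours and RI 4 was lowest, with medians of 0.0877, 0.082, -0.21 and 0.0869 in RI 1, 2, 4 and 5, against -0.0665, -0.00115, 0.0232 and -0.0621 in ICI 1 to 4. With length and GC trends removed the ER median was 0.0685, 0.0776, 0.13 and 0.0521 in RI tumours, against -0.17, -0.0318, 0.0319 and 0.0364 in ICI 1 to 4. The cytosolic median was 0.02, 0.09, -0.19 and -0.04 in RI 1, 2, 4 and 5, against -0.37, 0.04, 0.23 and 0.06 in ICI 1 to 4, with the groups overlapping. The mitochondrial median was 0.19, 0.10, -0.20 and 0.04 in RI tumours, against -0.45, 0.10, 0.18 and -0.05 in ICI 1 to 4, again overlapping. In the cytosolic and the mitochondrial medians ICI 1 was the lowest tumour and RI 4 the next.

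**Figure D5:**
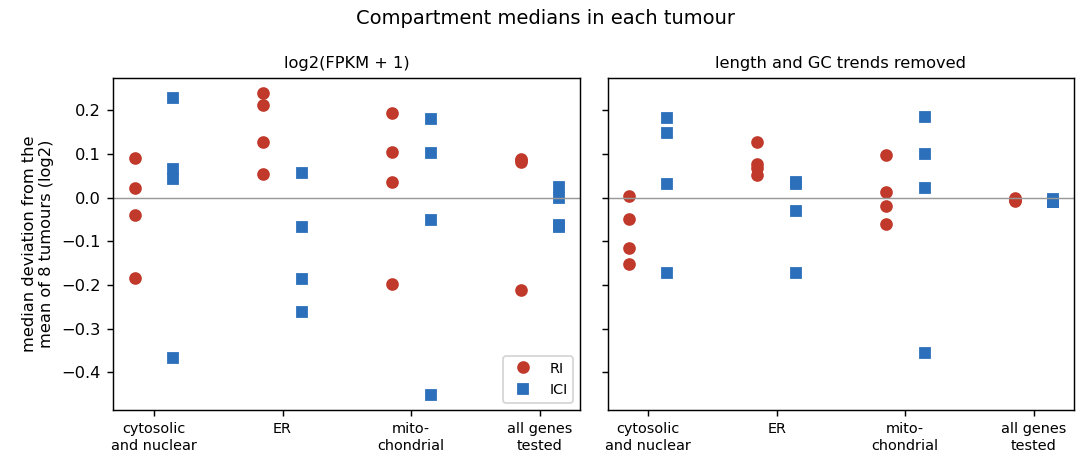
Median deviation of each compartment's tested members from the mean of the 8 tumours, on the log2 scale, for RI (circles) and ICI tumours (squares), with all genes tested at the right; the left panel is log2(FPKM + 1) and the right panel has length and GC trends removed. In the right panel the ER medians lie above 0 in all 4 RI tumours and also in ICI 3 and ICI 4. ICI 1 is lowest there in all 3 compartments.

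The other 12 members stayed under 1 FPKM in 5 or more tumours and were not fitted, 8 cytosolic or nuclear and 4 from elsewhere. Their highest mean was 0.873 FPKM, at Hspb9. Dnajb7 was the one whose groups did not overlap. Its recovered fragments were 3, 0, 0 and 0 in RI 1, 2, 4 and 5, against 12, 40, 24 and 22 in ICI 1 to 4. The RI tumours were at or near 0, a difference of -0.51 on the log2 scale, given without a test because the gene was picked from the 12 for this pattern. The testis relative Hspa1l, beside Hspa1a and Hspa1b on chromosome 17, was at 0.180 to 0.494 FPKM in RI and 0.418 to 0.915 FPKM in ICI tumours.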

How the data were processed

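RNA from 8 whole tumours had been sequenced, and the titles of the samples set 4 RI and 4 ICI. The authors deposited FPKM, 1 column per tumour. Per the submitters' processing notes, HISAT2 and GRCm38 (mm10) were used. How fragments were counted, and whether by strand, is not given in the sources used here. Coordinates and exon lengths came from GENCODE M21, which held 31407 of the 32098 rows. Low FPKM values rise in steps of 1 fragment, which gave the library sizes, and 98.6% to 98.8% of them were whole within 0.05. Every 2 libraries differed beyond sampling noise, with a chi-square of at least 30.2 per gene.

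Genes at 1 FPKM or more in at least 4 tumours, 13439 in all, were fitted with limma 3.58.1 (R 4.3.3) on log2(FPKM + 1), using eBayes with robust and trended variance in a two-sided test, with Benjamini-Hochberg adjustment over all of them. On this scale changes of low genes come out too small. The files gave FPKM and not counts, so no count test was the main one. In 10 simulated sets the 13439 genes were drawn as independent normal values with the real means and spreads, and a small part was shifted. Of genes shifted by 1, 55.8% were called, of genes shifted by 2, 88.2%, and 4.57% of calls were false. Real genes deviated together within tumours and many more were called, so these shares do not carry over to the calls made here.

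All members may be named. Full values were set for called members, the 4 highest of each compartment and a list of 12 inducible and organelle genes. Of other lists up to 4 genes with the smallest p were named. Hspa4, Hspa13, Hspb7, Hspa12b, Hspa1l, Dnajc19, Pfdn5, Vbp1 and Xbp1 were added after their values were seen. Dnajb12, Dnajc7, Dnajc27, Manf, Atf3 and Eif2ak3 also fell outside these rules and were added with values known. The members and lists were chosen with earlier results of these data known. Lists of 6 adipocyte, 6 lymphocyte and 6 epithelial markers gave 0 calls, with sums of 3.93 to 137, 4.73 to 8.53 and 770.2 to 1402 FPKM in RI and of 3.07 to 9.33, 5.82 to 17.3 and 971 to 2013 FPKM in ICI tumours. Motifs were searched in RefSeq promoters of GRCm38.p6. Alternatives covered filters, pseudocounts of 0.1 and 5, scalings, weights, a replicate block, length and GC trends, left-out tumours and voom on recovered fragments.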

Additional observations from a re-analysis of the deposited data

Results flagged for a closer look

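A single tumour stood far from the other 3 of its group in 3 of the 44 groups examined, judged by its gap to the nearest tumour against the range of the group. Dnaja3 was at 11.5 FPKM in RI 4, below the other RI tumours, with a gap of 0.899 of the range. Dnajc16 was at 3.52 FPKM in RI 4, below the other RI tumours, with a gap of 0.858 of the range. Hspb1 was at 12.03 FPKM in ICI 2, below the other ICI tumours, with a gap of 0.959 of the range. RI 4 was low over all genes tested as well, with a median of -0.21 relative to the mean of the 8 tumours, against 0.082 to 0.0877 in the other RI tumours. The bound used was Dixon's critical value for 4 tumours, which chance passes in about 1 of 20 groups.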

How the results depend on the processing

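In the main fit 4 of 59 members were called higher and 2 lower, beside 1486 and 887 of all 13439 genes. Testing every row gave 1 higher and 0 lower, beside 190 and 51 of 32098 genes. TPM gave 1 higher (Hspb7) and 0 lower, beside 192 and 88 of 13439 genes. Array weights gave 9 higher and 6 lower, beside 2729 and 1590. Leaving out ICI 1 and RI 4 together gave 6 higher and 6 lower, beside 2044 and 1059. Upper-quartile scaling, median centring and totals without mitochondrial and unannotated genes each gave 4 lower, beside 1546, 1623 and 1316 of all genes. Removal of length and GC trends gave 5 lower, beside 1251 of 13320 genes. Leaving out each tumour in turn gave 2 to 5 higher and 1 to 7 lower, the 7 without ICI 1. All genes then ran from 243 to 1579 higher and from 93 to 1114 lower. Under the filter 1 to 2 members were without overlap. Over all genes, median centring left 48.0% of calls higher in RI, against 62.6%, and TPM moved the median difference to 0.11.

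The mitochondrial median was 0.34 over genes of mean FPKM 5 or more. The ER median was 0.0469 with length and GC trends removed and 0.11 with the block as well. Directions reversed for Hspa5 at -0.0665 (array weights) and -0.13 (without ICI 1 and RI 4), Hsph1 at -0.22 (without both), and Hspb1 at 0.047 (trends removed) and 0.33 (trends removed, with block). With 1 tumour left out, Hspa5 ran from -0.16 (without ICI 1) to 0.31, Hsph1 from -0.14 (without ICI 1) to 0.73 and Dnajb9 from -0.32 to 0.0706 (without ICI 4). The cause was not tested.

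Tumours with the same replicate number did not deviate together (correlations -0.0923, -0.12 and -0.124). Only numbers 1, 2 and 4 occur in both groups, and ICI 1 and RI 4 stood apart as libraries. These values therefore cannot settle whether the numbers pair tumours. A block fit compares the groups only within those numbers and so rests on little data. A fit with the replicate number as a block called 0 members higher and 0 lower (limma), with 9 at an unadjusted p under 0.05, and 22 of all 13439 genes. With the trends removed as well it also called 0 and 0, with 13 at an unadjusted p under 0.05.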
